A study of Rattus norvegicus with 18 samples.

Results

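The genes described here make and sense 2 families of lipid signals, the prostaglandins and the leukotrienes. Pla2g2a encodes a secreted phospholipase A2, Ptgs1 and Ptgs2 encode the constitutive and the inducible cyclooxygenase, Ptger3 and Ptger4 encode receptors for prostaglandin E, Alox5 encodes arachidonate 5-lipoxygenase and Alox5ap encodes the membrane protein that presents arachidonic acid to it. The 7 members were chosen by gene symbol, out of 4736 genes that had a probe set naming a single gene. Earlier results of these data were known when they were chosen. Their counts beside those of all probe sets are therefore a description. The members had 11 probe sets. A gene with several was represented by the one that had the highest mean of log2 signal, and its others are given beside it.

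Phospholipases A2 release arachidonic acid from membranes. Cyclooxygenases turn it into the precursor of the prostaglandins and of thromboxane, and the lipoxygenase, with its activating protein, turns it into the precursor of the leukotrienes. In bone, prostaglandin E acts on both osteoblasts and osteoclasts, and the inducible cyclooxygenase is well known as a requirement for normal fracture repair in rodents. The lipoxygenase and its partner are known mainly from marrow-derived leukocytes, among them neutrophils, mast cells and macrophages.

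The middle segment of the femur was taken from Sprague-Dawley rats, all female, aged 6 weeks (young), 26 weeks (adult) or 52 weeks (older) at surgery. The femora had a closed transverse mid-shaft fracture held by an intramedullary rod and were taken 3 days or 1, 2, 4 or 6 weeks later, or had no fracture and came from sham-operated rats. Callus, cortical bone and marrow were not separated, so the results describe a mixed tissue, in which fewer cells of a type and less RNA per cell cannot be told apart. There were 18 arrays, 1 for each age and time, each read from RNA pooled from 2 rats. The 3 ages therefore stood in as replicates for the times, and p-values measure only the spread between these samples.

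Signal is the brightness of a probe set after every array was scaled to the same average of 500. It can be set against itself between arrays but not against the signal of another probe set. The share of probe sets below a signal of 20 was 12.3% to 20.3% per array. RNA quality was read from the actin controls, whose 3' signal over their 5' signal was 1.48 to 1.9 on all 12 arrays from 3 days to 4 weeks and 1.89 to 2.72 at 6 weeks, against 2.1 to 2.61 on the 3 arrays without fracture. The ratio was thus lower from 3 days to 4 weeks, the times of most of the changes below, and its part in them was not tested beyond a fit that holds it as a covariate. Of the markers of the labelled tissue, all 6 osteoblast genes listed were measured, with a summed signal of 61050 to 105500 after fracture and 20620 to 76270 without. Skeletal muscle is not among the parts named for the segment, but all 6 of its genes listed were measured as well. Their sums were 22650 to 29440 at 3 days, 45950 to 65670 at 1 week and 57600 to 91770 at 6 weeks, against 78070 to 88540 without fracture. All 6 were called lower at 3 days by the adjusted p of limma, as were 20.4% of all probe sets. The part of muscle in the changes below was not tested.

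Promoter windows are shown for the 3 members with the largest change of any of their probe sets. These are Ptgs2, whose second probe set rose, and Pla2g2a and Alox5, which fell. Each runs from 250 bases before to 50 bases after the gene start, from RefSeq on build GRCr8. Ptgs2 lies on the + strand at chr13:64713813-64714112, Alox5 on the - strand at chr4:151251077-151251376 and Pla2g2a on the + strand at chr5:156359475-156359774. Capitals mark a match, on either strand, to any of 6 motifs named after the sequences.
Ptgs2 promoter: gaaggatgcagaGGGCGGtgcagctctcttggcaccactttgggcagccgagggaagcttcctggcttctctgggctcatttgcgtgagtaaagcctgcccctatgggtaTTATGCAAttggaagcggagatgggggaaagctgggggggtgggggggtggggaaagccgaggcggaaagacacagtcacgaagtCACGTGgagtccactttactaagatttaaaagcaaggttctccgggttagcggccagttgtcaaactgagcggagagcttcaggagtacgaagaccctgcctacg
Alox5 promoter: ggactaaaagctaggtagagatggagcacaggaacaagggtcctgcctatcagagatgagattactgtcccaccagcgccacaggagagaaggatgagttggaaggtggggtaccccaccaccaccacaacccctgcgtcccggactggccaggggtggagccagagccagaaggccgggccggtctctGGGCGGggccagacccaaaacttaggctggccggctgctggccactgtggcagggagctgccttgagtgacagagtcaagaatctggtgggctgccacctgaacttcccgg
Pla2g2a promoter: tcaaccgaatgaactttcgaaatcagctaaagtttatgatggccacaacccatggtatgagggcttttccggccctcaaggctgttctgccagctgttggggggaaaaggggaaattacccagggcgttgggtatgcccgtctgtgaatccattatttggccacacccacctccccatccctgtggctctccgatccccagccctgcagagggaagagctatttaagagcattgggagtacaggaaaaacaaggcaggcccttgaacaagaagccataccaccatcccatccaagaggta

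The motifs searched were the E-box CACGTG, the C/EBP motif TTGCNNAA, the cyclic AMP element TGACGTCA, the GC box GGGCGG, the AP-1 motif TGANTCA and the TATA box TATAAA. None of the matches overlapped. The Ptgs2 window held an E-box 55 bases, a C/EBP motif 140 bases and a GC box 238 bases before the gene start. The Alox5 window held a GC box 61 bases before the start, and the Pla2g2a window held no match. Over all 33469 promoter windows, 6.42% held the E-box, 10.6% the C/EBP motif, 33.1% the GC box, 1.83% the cyclic AMP element, 7.33% the AP-1 motif and 14.2% the TATA box. A match is a run of letters and does not show that a factor binds there. Of the 7 members, 6 had a window, and of the 3 windows not printed only that of Ptger3 held a match, which was a GC box at 144, 117 and 38 bases before the start.

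After fracture 4 members differed for weeks from the arrays without fracture. In the limma fit over the 6 times, 4 of 7 members passed the F test, against 36.3% of all probe sets. They were Pla2g2a (adjusted p = 0.00026), Alox5 (adjusted p = 6.4e-05), Alox5ap (adjusted p = 0.00032) and Ptgs1 (adjusted p = 0.042). Their representative probe sets were all lower after fracture. Ptgs2 differed between its probe sets. The representative one did not pass (adjusted p = 0.053), whereas the second one rose strongly at 3 days and passed (adjusted p = 0.00018). Ptger3 (adjusted p = 0.19) and Ptger4 (adjusted p = 0.2) did not pass.

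**Figure D1:**
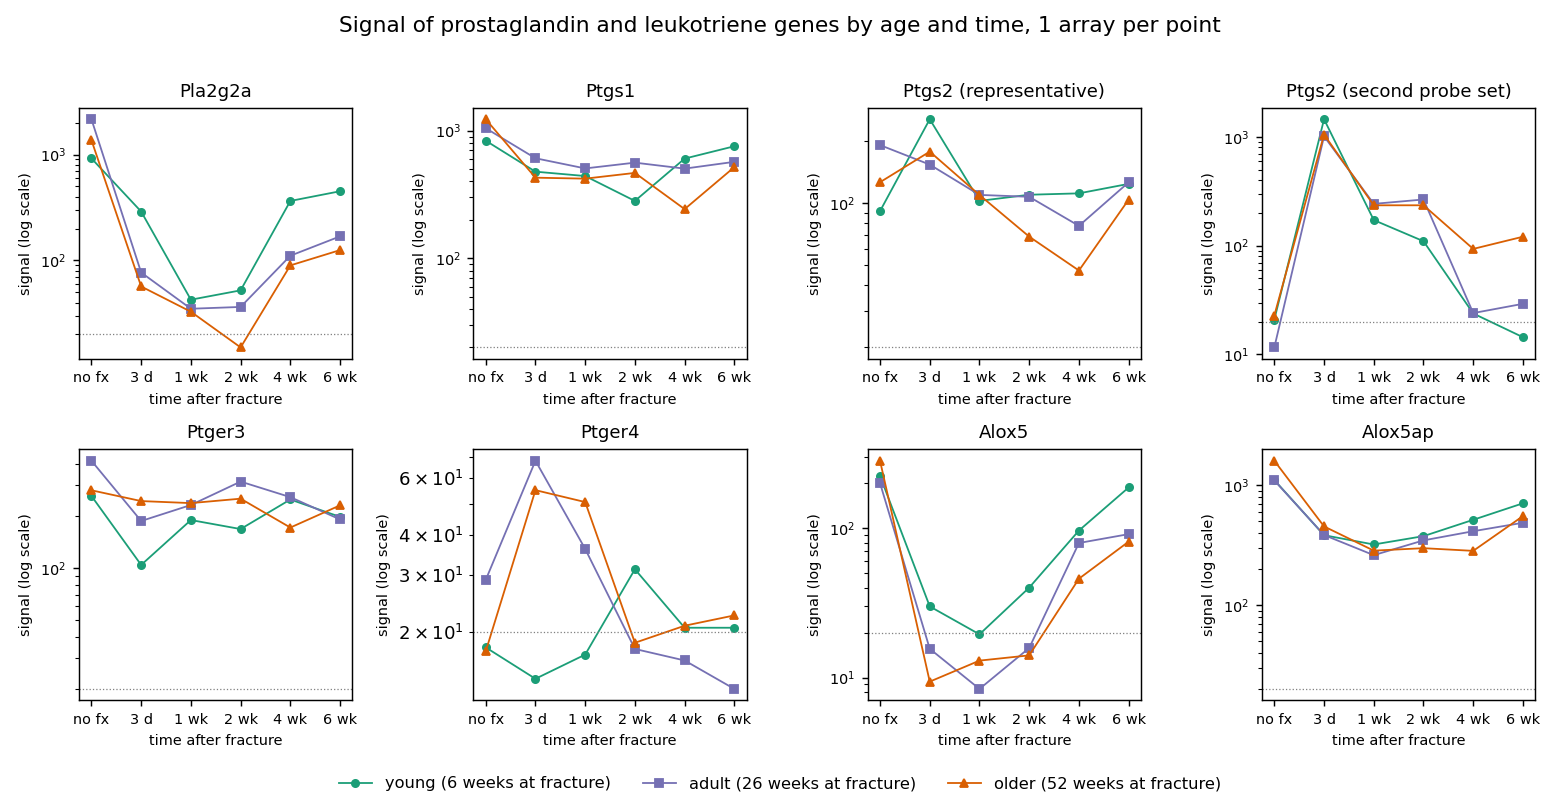
Signal (log axis) of the members against time after fracture, 1 array per point, with a line for each age and a dotted line at a signal of 20; "no fx" is no fracture. Pla2g2a, Ptgs1, Alox5 and Alox5ap were below their no fracture arrays at 3 days at all 3 ages, and the second Ptgs2 probe set stood between 1014 and 1454.8 at 3 days, against 11.6 to 22.8 without fracture.

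At 3 days the representative probe sets of 5 of 7 members had a lower signal by the adjusted p of limma and none a higher one. Among all probe sets 20.4% were called lower and 39.3% were called in either direction. The fifth lower member was Ptger3. These counts, here and at the later times, leave out the second Ptgs2 probe set, which limma called 54.6-fold higher at 3 days (adjusted p = 2.8e-05). At 1 week 4 of 7 were lower, against 17.8% of all probe sets called lower and 35.8% in either direction. At 2 weeks 4 of 7 were lower, against 16.8% and 32.8%. At 4 weeks 4 of 7 were lower, against 9.7% and 21.2%. At 6 weeks 3 of 7 were lower, against 7.11% and 15.4%, and Ptgs1 was no longer among them. The ranges of 5, 5, 4, 5 and 5 members lay wholly below the range without fracture at these times in order, as did those of 25.4%, 29.2%, 26.1%, 17.8% and 14.3% of all probe sets. The median log2 change of the members was -1.04, -1.17, -1.29, -1.29 and -0.76 at these times in order, while the median of all probe sets was -0.08, -0.04, -0.07, -0.03 and -0.01. The calls at 4 and 6 weeks depended on the ages included. Without adult rats 0 of 7 members passed at either time, as did 37 and 57 of all 8740 probe sets. Without older rats 1 of 7 passed at 4 weeks and 0 of 7 at 6 weeks, as did 111 and 46 probe sets. In the main fit 1855 and 1350 probe sets were called at these times. With the actin ratio as a covariate 3 of 7 members passed at 3 days and 1 of 7 at 4 weeks, as did 1181 and 180 probe sets.

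**Figure D2:**
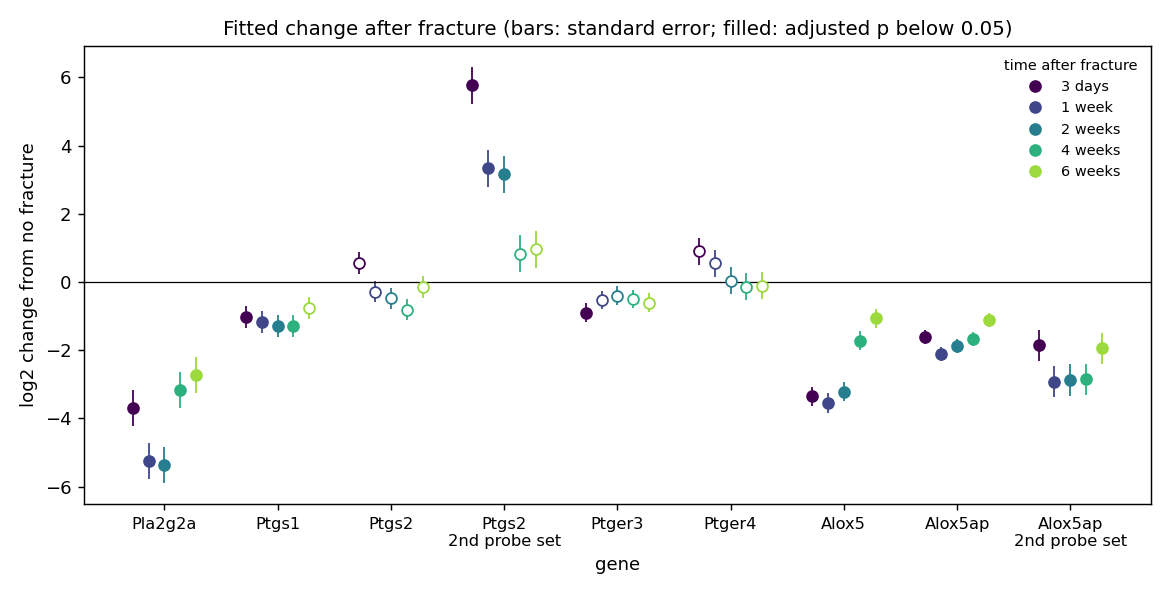
Fitted log2 change from no fracture for each member and time, with bars for the standard error and filled points for an adjusted p below 0.05. Pla2g2a reached -5.37 at 2 weeks and the second Ptgs2 probe set 5.77 at 3 days, while the representative Ptgs2 probe set stayed between -0.81 and 0.55.

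Pla2g2a, the phospholipase, had the largest fitted fall of the members, although those of Alox5 up to 2 weeks are lower bounds. The signal of Pla2g2a was 289.4 (young), 76.9 (adult) and 56.8 (older) at 3 days, against 919.6, 2153.4 and 1366.9 in the same age groups without fracture. At 1 week it was 42.6, 35 and 32.8, and at 2 weeks 52.2, 36.4 and 15.1. All fractured arrays lay below all 3 arrays without fracture, and at 2 weeks the older rats were below 20. At 4 weeks it was 364.4, 110.8 and 89.8, and at 6 weeks 450, 168.8 and 125.2, so the young arrays were the highest of each late time. The fitted log2 change was -3.69 ± 0.53 (SE) at 3 days, a 12.9-fold lower signal (adjusted p = 0.00033). It was -5.25 at 1 week, 38.1-fold lower, and -5.37 at 2 weeks, 41.5-fold lower (adjusted p = 8.8e-05). It was -3.18 at 4 weeks, 9.07-fold lower (adjusted p = 0.0034), and -2.72 at 6 weeks, 6.58-fold lower (adjusted p = 0.0082). The gain of 2.19 on the log2 scale at 4 weeks over 2 weeks was not called (adjusted p = 0.07). Over the alternatives of processing or samples tried, the log2 change at 2 weeks ranged from -5.99 to -3.80.

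Ptgs1, the constitutive cyclooxygenase, fell by less. Its signal was 477.2, 607.9 and 428.1 at 3 days in young, adult and older rats, against 834.7, 1045.7 and 1229.6 without fracture. At 2 weeks it was 281.4, 561.5 and 466.6, and at 4 weeks 604.1, 504.1 and 242.7. The ranges after fracture did not overlap the range without fracture at any of the 5 times. The fitted change was -1.04 ± 0.32 at 3 days, 2.05-fold lower (adjusted p = 0.024), and -1.17 at 1 week (adjusted p = 0.015). It was -1.29 at 2 weeks, 2.44-fold lower (adjusted p = 0.01), and -1.29 at 4 weeks (adjusted p = 0.017). At 6 weeks the signal was 755, 569.9 and 518.3, and the change of -0.76 was not called (adjusted p = 0.14). The calls at 3 days, 2 weeks and 4 weeks were each lost in 6 of 12 alternatives of processing or samples. The call at 1 week was lost in 4 of 12.

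Ptgs2, the inducible cyclooxygenase, had 2 probe sets whose profiles correlated at only r = 0.313 across the 18 arrays. The second one read 1454.8 (young), 1014 (adult) and 1051.4 (older) at 3 days, against 20.9, 11.6 and 22.8 without fracture. At 1 week it read 172, 242.4 and 235.1, and at 2 weeks 109.9, 265.9 and 235.2. These 9 arrays all lay above the 3 arrays without fracture, as was true at 3 days, 1 week and 2 weeks of 21.4%, 22% and 19.3% of all probe sets. The 3-day signal was 54.6-fold higher (log2 change 5.77 ± 0.54, adjusted p = 2.8e-05), with 1 of the arrays without fracture set to the floor of 20 and the other two just above it. The size depends on that floor, since the change was 3.53 with a floor of 100 and 4.15 on the log2(signal + 50) scale. The difference was 10.1-fold at 1 week (adjusted p = 0.00096) and 8.97-fold at 2 weeks (adjusted p = 0.0015). Of all probe sets, 18.9%, 18% and 16.1% were called higher at these 3 times. The signal fell by 2.44 on the log2 scale at 1 week relative to 3 days (adjusted p = 0.033), where 1.38% of all probe sets were called lower.

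At 4 weeks the second Ptgs2 probe set was close to its level without fracture in young and adult rats, at 23.8 and 24, and read 93.4 in older rats. At 6 weeks it read 14.4 and 29.2 in young and adult rats and 120.9 in older rats. Neither time differed from no fracture in the fit over all ages (1.78-fold, adjusted p = 0.3, and 1.95-fold, adjusted p = 0.26). The calls at 1 and 2 weeks were lost with the actin ratio as a covariate (adjusted p = 0.064 and 0.1) and without adult rats (adjusted p = 0.05 and 0.068). The 3-day call stood in every alternative of processing or samples tried.

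The representative Ptgs2 probe set read 255.6, 154 and 178 at 3 days, against 91.6, 191.5 and 126.5 without fracture. At 2 weeks it read 110, 107.5 and 68.9, and at 4 weeks 111.7, 77.7 and 47.2. The 3-day and no fracture ranges overlapped. Its change was 0.55 ± 0.31 at 3 days (adjusted p = 0.18) and -0.81 at 4 weeks (adjusted p = 0.088), and no time was called. The annotation gives both probe sets the same gene, and why they differ was not tested.

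Ptger3, a receptor for prostaglandin E that lowers cyclic AMP, changed little. It read 104.1 (young), 186.8 (adult) and 243.5 (older) at 3 days, against 260.7, 416.5 and 281.1 without fracture. The ranges did not overlap, and the change of -0.90 ± 0.27 was called (1.86-fold lower, adjusted p = 0.022). At later times the changes were between -0.61 and -0.40 and none was called. Ptger3 had 2 other probe sets. One read 21.2 to 90.5 and showed no call, with a change of -0.17 at 3 days (adjusted p = 0.8). The other was below 20 on 14 of 18 arrays. It was called 1.52-fold lower at 3 days (adjusted p = 0.031), 1 week (adjusted p = 0.035) and 2 weeks (adjusted p = 0.037), with all arrays of these times set to the floor.

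Ptger4, a receptor for prostaglandin E that raises cyclic AMP, was near the bottom of the scale, with 8 of 18 arrays below 20. It read 14.3, 68 and 55.1 at 3 days in young, adult and older rats, against 17.9, 29 and 17.4 without fracture. At 1 week it read 17, 36.2 and 50.6. Adult and older rats were thus above their own no fracture arrays at both times and young rats were not. The change of 0.90 ± 0.40 at 3 days did not pass (adjusted p = 0.096), nor did that of 0.55 at 1 week (adjusted p = 0.3).

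Alox5, the lipoxygenase that starts leukotriene synthesis, read 30 (young), 15.6 (adult) and 9.4 (older) at 3 days, against 224.5, 201 and 283.9 without fracture. At 1 week it read 19.5, 8.4 and 13, all below 20, and at 2 weeks 40.1, 15.8 and 14.1. It read 96.7, 79.8 and 46 at 4 weeks and 188, 91.5 and 81.5 at 6 weeks. All 15 fractured arrays lay below the 3 arrays without fracture. With signals under 20 set to 20, Alox5 was at least 10.2-fold lower at 3 days (log2 change -3.35 ± 0.28, adjusted p = 1.9e-05) and at least 11.7-fold lower at 1 week (adjusted p = 3e-05). It was at least 9.28-fold lower at 2 weeks (adjusted p = 6e-05), 3.3-fold lower at 4 weeks (adjusted p = 0.0032) and 2.09-fold lower at 6 weeks (adjusted p = 0.029). The signal rose by 1.49 on the log2 scale at 4 weeks relative to 2 weeks (adjusted p = 0.028), where 1.09% of all probe sets were called higher. Alox5 was the only member called in that comparison.

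Alox5ap, the lipoxygenase's activating protein, fell less than Alox5. It read 382.1, 383.4 and 452.3 at 3 days, against 1102.1, 1093 and 1595.2 without fracture. The lowest signals came at 1 week in young and adult rats, at 319.7 and 260.5, and at 4 weeks in older rats, at 282.9, which was next to their 284.1 at 1 week. At 6 weeks it read 704.8, 485.2 and 551.5. It was 3.07-fold lower at 3 days (log2 change -1.62 ± 0.21, adjusted p = 0.00019) and 4.33-fold lower at 1 week (adjusted p = 8.2e-05). At 2, 4 and 6 weeks it was 3.68-fold (adjusted p = 0.00018), 3.18-fold (adjusted p = 0.00095) and 2.17-fold lower (adjusted p = 0.0071). Its other probe set was lower at all 5 times as well, by 3.63-fold at 3 days (adjusted p = 0.0083) and 7.59-fold at 1 week (adjusted p = 0.00082).

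Marker lists of other marrow cells moved beside the members, some down and some up. The platelet and megakaryocyte list, with 3 of 6 genes measured, summed to 1776 to 3838 at 3 days, 912.6 to 1425 at 2 weeks and 1966 to 5740 at 6 weeks, against 10590 to 15320 without fracture. The neutrophil list, with 4 of 8 genes measured, summed to 884.3 to 12990 at 3 days, where 12990 was the young array, to 446.7 to 2003 at 2 weeks and to 5419 to 30530 at 6 weeks, against 36430 to 50400 without fracture. The mast cell list, with 7 of 8 measured, summed to 728.7 to 928 at 3 days and 4745 to 7269 at 4 weeks, against 3024 to 4047 without fracture. Of its 7 genes, 6 were called lower and 0 higher at 3 days, and 1 lower and 4 higher at 4 weeks. Fcer1a, a subunit of the receptor for immunoglobulin E, was below 20 on all 3 arrays at 3 days and at 1 week and read 131.1 to 316.4 at 4 weeks, against 45.4 to 114.7 without fracture. All 4 erythroid genes listed were measured and called lower at 3 days, and they summed to 4708 to 10760 at 3 days and 22990 to 46950 at 6 weeks, against 40830 to 73460 without fracture. The 2 of 7 macrophage genes measured were higher in sum, at 834.3 to 907.8 at 3 days, against 269.9 to 357.5 without fracture, with 1 called higher. The part of these cells in the members' changes was not tested.

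The genes with profiles most like the members are given by Pearson's r across the 18 arrays, among 3174 genes with a mean signal of at least 100. It was taken on log2 signals with values under 20 set to 20. The arrays share ages and times, so r is a description. Pla2g2a was most like Pf4 (r = 0.986), platelet factor 4, followed by Srgn (r = 0.967), the granule proteoglycan serglycin. Alox5 was most like Prkcb (r = 0.978), a protein kinase C, and Ms4a2 (r = 0.964), a subunit of the mast cell receptor for immunoglobulin E. The next was Rhd (r = 0.96). Alox5 and Ms4a2 were both below 20 in adult and older rats at 3 days, 1 week and 2 weeks. Those arrays count as ties at the floor in their r. Alox5ap was most like Arrb2 (r = 0.962), an arrestin, and Ptgs1 was most like Arpp21 (r = 0.862). The other members had no gene as close, with highest values of 0.711 for the representative Ptgs2 probe set (Cit), 0.779 for Ptger3 (Masp1) and 0.801 for Ptger4 (Plaat5).

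**Figure D3:**
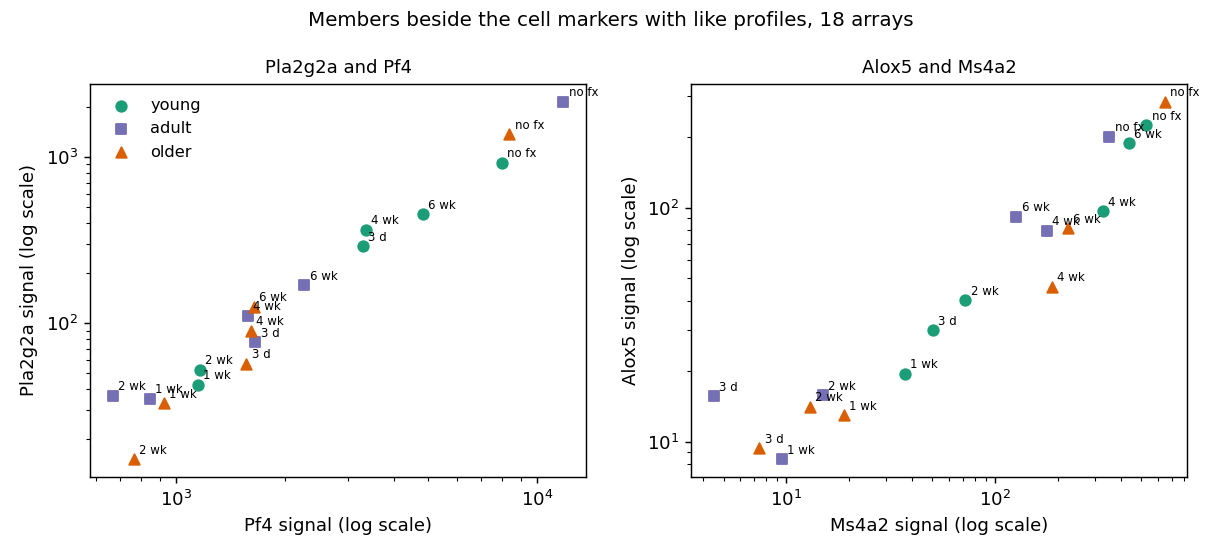
Signal of Pla2g2a against Pf4 and of Alox5 against Ms4a2 (both axes log), 1 point per array, coloured by age and labelled by time. The arrays without fracture lie at the top right. The r was taken on log2 signals with values under 20 set to 20. It is 0.986 for Pla2g2a and Pf4 and 0.964 for Alox5 and Ms4a2. Arrays with both Alox5 and Ms4a2 under 20 count as ties in that r.

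Pf4 read 3293 (young), 1656.9 (adult) and 1564.2 (older) at 3 days, against 7978.8, 11827.8 and 8372.5 without fracture, and 4829.6, 2263.2 and 1642.4 at 6 weeks. Its highest late array was the young one, as for Pla2g2a. Ms4a2 read 50.2, 4.5 and 7.4 at 3 days, against 528.4, 351.8 and 645.5 without fracture, and 434.7, 126 and 222.3 at 6 weeks. At 4 weeks it read 326.8, 176.8 and 186.5. Most of the mast cell list differed from it then, since 4 of the 7 genes measured were called higher than without fracture and 1 lower.

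Age was compared over all 6 times, with times standing in as replicates. By the adjusted p of limma, 0 of 7 members differed between older and young rats, where 0.446% of all probe sets were called, and 0 of 7 between adult and young rats, where 0.0801% were called. At an unadjusted p below 0.05, 2 of 7 members were past the threshold in each comparison, as were 14.1% of all probe sets for older and 9.57% for adult against young rats. Pla2g2a was 2.35-fold lower in older than in young rats (log2 difference -1.23 ± 0.37, adjusted p = 0.17). Alox5 was 1.5-fold lower (-0.59 ± 0.20, adjusted p = 0.21). In adult against young rats the 2 members were Alox5, 1.42-fold lower (adjusted p = 0.45), and Ptger3, 1.37-fold higher (adjusted p = 0.47).

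Older and young rats were then compared within phases of healing in a second limma fit, with 4 residual degrees of freedom. At 4 and 6 weeks 0 of 7 members differed between older and young rats, where 1.24% of all probe sets were called, and 4 of 7 had an unadjusted p below 0.05, as had 20.9% of all probe sets. Pla2g2a was 3.82-fold lower in older rats (-1.93 ± 0.27, adjusted p = 0.057), Alox5 2.2-fold lower (adjusted p = 0.16), Ptgs1 1.9-fold lower (adjusted p = 0.19) and Alox5ap 1.52-fold lower (adjusted p = 0.17). Pla2g2a passed with median centring and with a floor of 100. The second Ptgs2 probe set was 4.87-fold higher in older rats (2.28 ± 0.27, adjusted p = 0.042, where 0.435% of all probe sets were called higher), which rests on 93.4 and 120.9 in older against 23.8 and 14.4 in young rats. With a floor of 100 this difference was 0.14 and was not called (adjusted p = 1).

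The interaction, which asks whether older and young rats differed more at 4 and 6 weeks than without fracture, was called for 0 of 7 members and for 3.02% of all probe sets. It was -2.51 for Pla2g2a (adjusted p = 0.074), -1.49 for Ptgs1 (adjusted p = 0.24), -1.48 for Alox5 (adjusted p = 0.27) and -1.14 for Alox5ap (adjusted p = 0.17), with an unadjusted p below 0.05 in 4 of 7 members and in 18.3% of all probe sets. For the second Ptgs2 probe set it was 2.16 (adjusted p = 0.1). At 1 and 2 weeks 0 of 7 members and 0 of 8740 probe sets differed between older and young rats, with 1 of 7 members and 11.2% of all probe sets at an unadjusted p below 0.05.

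As a share of the no fracture array of the same age at surgery, Pla2g2a at 6 weeks stood at 48.9% (young), 7.84% (adult) and 9.16% (older). Alox5 stood at 83.7%, 45.5% and 28.7%, Ptgs1 at 90.5%, 54.5% and 42.2%, and Alox5ap at 64%, 44.4% and 34.6%. The young array was thus the highest for all 4 of these genes at 6 weeks, and it was at 4 weeks too. Of the 1785 probe sets called lower at 3 days, 66.8% had the young array highest at 6 weeks and 63.7% at 4 weeks, so the order is common among genes that fell. At 6 weeks the neutrophil sum was 30530 (young), 9893 (adult) and 5419 (older), and the platelet sum was 5740, 2678 and 1966. Their part in the order was not tested.

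**Figure D4:**
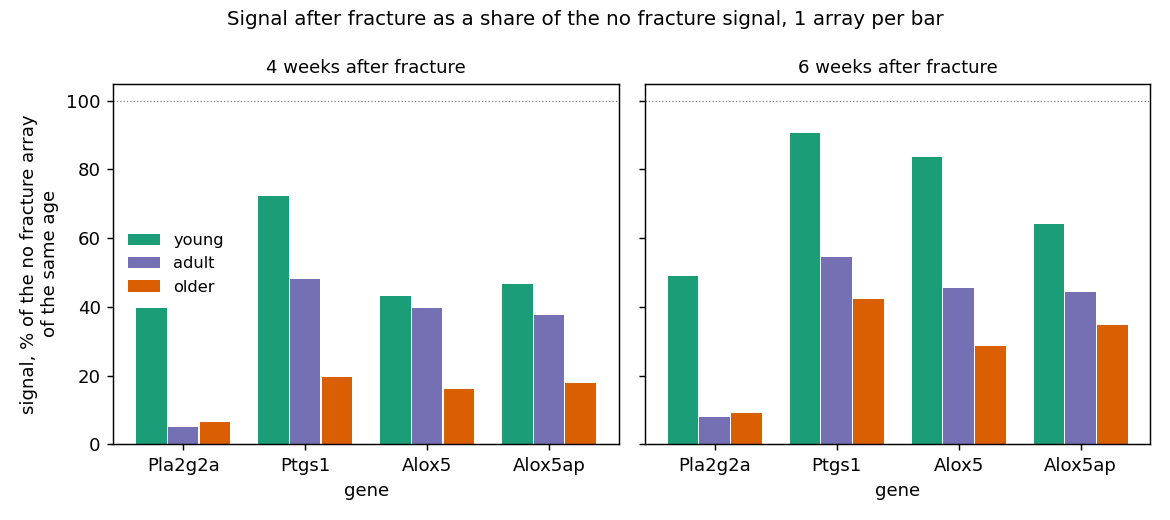
Signal at 4 and 6 weeks as a percentage of the no fracture array of the same age at surgery (dotted line at 100), 1 array per bar, for the 4 members that passed the F test over time. The young bar is the highest in every group, with 83.7% for Alox5 and 48.9% for Pla2g2a at 6 weeks.

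Of 43 other genes listed for the same pathway, 27 were measured by a probe set naming 1 gene. At 3 days 5 were called higher and 8 lower, at 1 week 3 and 6, at 2 weeks 4 and 9, at 4 weeks 1 and 6, and at 6 weeks 1 and 4. Of all probe sets 18.9%, 18%, 16.1%, 11.5% and 8.34% were called higher and 20.4%, 17.8%, 16.8%, 9.7% and 7.11% lower at these times in order. Their median log2 changes were -0.37, -0.16, -0.32, -0.24 and -0.29 at these times in order. Of 7 genes of leukotriene synthesis and breakdown, 4, 3, 3, 3 and 2 were lower and 0 higher, but 3 of the 7, Ggt1, Cyp4f1 and Cyp4f4, were below 20 on 13, 13 and 7 of 18 arrays. Leukotriene receptors were not measured by such a probe set.

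Alox15, a lipoxygenase that oxidises arachidonic and linoleic acid, had the largest fall. It read 480.9 (young), 231.8 (adult) and 153.7 (older) at 3 days, against 3115.7, 6924.3 and 3039.5 without fracture, a 15.6-fold lower signal (adjusted p = 0.00011). It was still 3.9-fold lower at 6 weeks (adjusted p = 0.019). Lta4h, the hydrolase that acts next to Alox5, was lower at all 5 times, by 2.43-fold at 3 days (adjusted p = 0.00043) and 3.98-fold at 2 weeks (adjusted p = 8.1e-05). It read 1388.9, 1434.7 and 1222.2 at 2 weeks, against 4728.8, 5604.5 and 5786.5 without fracture. Ggt1, a glutamyl transferase that trims cysteinyl leukotrienes, was also called lower at all 5 times, but it was below 20 on 13 of 18 arrays.

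Genes of prostaglandin and thromboxane synthesis, transport and reception were called in both directions. Hpgds, the haematopoietic prostaglandin D synthase, was 4.21-fold lower at 2 weeks (adjusted p = 0.00071). It read 79.5, 59.5 and 52.4 in young, adult and older rats at 2 weeks, against 219.6, 295.6 and 285.4 without fracture, and was called higher at 4 weeks relative to 2 weeks (2.93-fold, adjusted p = 0.032). Tbxa2r, the thromboxane receptor, was lower at all 5 times, by 2.94-fold at 1 week (adjusted p = 0.0021) and 2.04-fold at 6 weeks (adjusted p = 0.036). Ptgis, the prostacyclin synthase, was 3.12-fold higher at 3 days (adjusted p = 0.00033), with 1394.7, 1870.3 and 1509.9 against 735.3, 434.6 and 404.2 without fracture. Slco2a1, a prostaglandin transporter, was 2.75-fold higher at 3 days (adjusted p = 0.0048) and stayed higher to 2 weeks (2.66-fold, adjusted p = 0.0074).

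Other phospholipases A2 did not share the fall of Pla2g2a. Of 5 measured, none was called lower at any of the 5 times. Pla2g4a, the cytosolic phospholipase that frees arachidonic acid, read 356.9, 515.2 and 500 at 3 days in young, adult and older rats, against 166.5, 132.1 and 205.8 without fracture, 2.73-fold higher (adjusted p = 0.00013). It was also higher at 1, 2 and 6 weeks. Pla2g5, another secreted phospholipase, was 4.16-fold higher at 2 weeks (adjusted p = 0.016) and 3.42-fold higher at 4 weeks (adjusted p = 0.043), measured from its near-floor signals without fracture. Anxa1, annexin A1, an inhibitor of phospholipase A2 that was listed with them, was 1.98-fold lower at 2 weeks (adjusted p = 0.013).

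**Figure D5:**
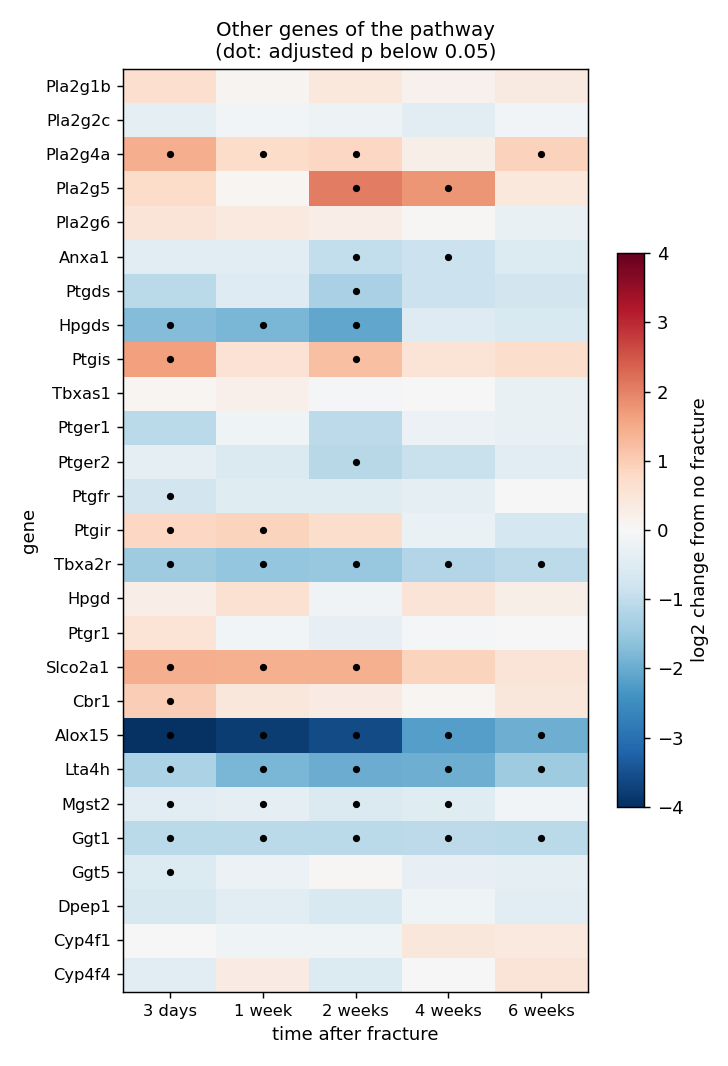
Fitted log2 change from no fracture (colour, red higher and blue lower) of the 27 other measured genes of the pathway at the 5 times, with a dot where the adjusted p was below 0.05. Alox15 and Lta4h were lower at all 5 times, and Ptgis, Slco2a1 and Pla2g4a were higher at 3 days.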

How the data were processed

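The deposited values are signal intensity from 18 Affymetrix rat genome arrays. The authors summarised the probes of each set in Microarray Suite and scaled each array to a target of 500. A value is thus a share of its array. Detection calls were not used here.

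Of 8799 probe sets, 59 controls were left out and 8740 tested. Symbols came from the platform annotation, in which 7006 probe sets name 1 gene, 308 several and 1426 none. Signals were floored at 20, taken as log2 and analysed by a linear model of additive time and age effects with a trended prior, in limma 3.58.1 under R 4.3.3 (10 residual degrees of freedom). The labels give each array an age, a time and a series number, which is the same for all arrays used here. Within an age and time there were thus no replicates. The fit holds age as an additive factor, which is also the factor tested between ages. A second fit nested age in phases. Adjusted p is Benjamini-Hochberg over all 8740 probe sets, called below 0.05. The fit was tested on simulated data. Named pathway genes were those with the largest called changes each way, up to 4, plus Ggt1 and Anxa1, named after their values were seen. For likeness, the 3 genes with the highest r were found per member. The members and lists were chosen with earlier results of these data known.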

Additional observations from a re-analysis of the deposited data

Results flagged for a closer look

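The representative Ptgs2 probe set stood out because young and adult rats moved in opposite directions after fracture. In young rats all 5 fractured arrays, at 102.7 to 255.6, were above the no fracture array at 91.6. In adult rats all 5 fractured arrays, at 77.7 to 154, were below the no fracture array at 191.5. The difference between the ages was not tested, and each age has 1 array without fracture. The second Ptgs2 probe set did not show this, since its adult arrays after fracture, at 24 to 1014, were all above the adult array without fracture at 11.6.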

How the results depend on the processing

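Of 24 called results of single probe sets, all 24 kept their direction under every alternative of processing or samples tried. Their call was kept under all of these by 6. A change of probe set was not counted among these alternatives. At 1 and 2 weeks, where the second Ptgs2 probe set was called higher, the representative one gave -0.28 and -0.48 and was not called. Each call at 4 or 6 weeks against no fracture was lost in 4 to 6 of its 11 or 12 alternatives. Those of Ptgs1 and Ptger3 at 3 days were lost in 6 of 12. Those of Ptgs1 were also lost in 4 of 12 at 1 week and in 6 of 12 at 2 weeks, and that of Pla2g2a at 3 days in 3 of 12. The results that reversed had not been called. The representative Ptgs2 probe set turned to 0.08 at 6 weeks without adult rats (adjusted p = 1), and the second Ptgs2 probe set gave 3.34, 3.17, 0.83 and 0.96 at 1, 2, 4 and 6 weeks. A second Ptger3 probe set gave 0.28, 0.31 and 0.60 at 1, 2 and 6 weeks. The causes were not tested.

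Counts of called members moved as follows. With the actin ratio as a covariate 3 members were called at 3 days and 1 at 4 weeks, and 1181, 1022, 679 and 180 probe sets at 3 days and 1, 2 and 4 weeks, with 4 for older and 3 for adult against young rats. In fits of only the arrays of the 2 times compared, which have fewer residual degrees of freedom, 2 members were called at 3 days and 0 at 2, 4 and 6 weeks, and 902, 356, 0, 0 and 0 probe sets at the 5 times. The methods' t-test, run without age as a factor, called 2 members at 3 days and 0 at 4 and 6 weeks. This held both at an unadjusted p below 0.005, a threshold that the methods give for comparing one array with another and not for this test, and after Benjamini-Hochberg adjustment. It called 1120, 1107, 814, 344 and 248 probe sets at 0.005 and 1422, 1400, 745, 46 and 12 after adjustment.

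With 1 age left out, members called ranged over 3 to 5 at 3 days, 0 to 5 at 4 weeks and 0 to 3 at 6 weeks, while probe sets called at the 5 times numbered 1742, 1051, 889, 37 and 57 without adult rats and 1844, 1189, 884, 111 and 46 without older rats. With 1 time left out, 2 to 30 probe sets were called for older and 0 to 12 for adult against young rats. For older against young rats 64 were called with median centring, 8 with a floor of 100, 76 with log2(signal + 50) and 142 with a filter at a mean signal of 100. For adult against young rats 2 were called with quantile normalization and 0 with the floor of 100. At 1 and 2 weeks 2, 5 and 7 probe sets differed between older and young rats under quantile normalization, median centring and the floor of 100. At 4 and 6 weeks median centring called 210 probe sets and 1 member, and the floor of 100 called 1 member and 1 member for the interaction. Arrays have no depth, and 12.3% to 20.3% of signals per array lay below the floor, which limits how far falls of Alox5 and changes of Ptger4 can be sized.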
